A study of Mus musculus with 4 samples.

Results

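GCimm1 is the first of the 2 clusters of immature granule cells along the path from neural stem cell to mature neuron in the adult mouse dentate gyrus. Its members were taken from the cluster assignment that the authors deposited, and they are 2442 of 14367 nuclei. Of these, 129 came from w1, 1933 from w2, 379 from w4 and 1 from w8, named for the weeks between tamoxifen and collection. The nuclei were set against the 12 other clusters, and in more depth against the neuroblast clusters NB1 (2578 nuclei) and NB2 (726 nuclei) and the second immature cluster GCimm2 (979 nuclei).

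Granule cells are the principal neurons of the dentate gyrus, and new ones are added to this region through adult life. Immature granule cells have left the cell cycle, carry the microtubule protein doublecortin, extend an axon toward CA3 and a dendrite into the molecular layer, and are reached by GABAergic contacts before glutamatergic ones. GABA is at first depolarizing in such cells, because the chloride exporter KCC2 appears late.

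All nuclei came from mice that carried a tamoxifen-inducible Cre and CAG-floxStop-Sun1/sfGFP on a C57BL/6J background, given tamoxifen at 6 to 8 weeks of age. The green nuclear envelope tag Sun1-sfGFP marked the cells in which the Cre was active at induction and their progeny, and the kept nuclei included oligodendrocyte lineage cells. For each time, left dentate gyri of 4 males and females were pooled before sorting of GFP+ nuclei and 10x 3′ sequencing. Each week is therefore 1 pooled library, values of different weeks have no replicate error, and no test between weeks was made.

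The 4 libraries held 13227971 to 28595331 UMIs (unique molecular identifiers, counts of captured RNA molecules) in the kept nuclei. In GCimm1 the median was 4882 UMIs and 2240 detected features per nucleus in w1, 5290 and 2489 in w2, and 3841 and 1969 in w4, and the mean mitochondrial share was 0.0175% to 0.0264%. Across libraries 22 cell barcodes recurred, and 11 GCimm1 nuclei carried one. By X- and Y-linked transcripts, 96.1% of the GCimm1 nuclei with a called sex were male in w1, 24.9% in w2 and 27.9% in w4. The sex mix also differed between clusters of the same library, with 54.5%, 34.2% and 24.4% male in NB1, and 99.5%, 9.15% and 100% male in NB2 of w1, w2 and w4. For GCimm2 it was 25.8% in w2, 27.0% in w4 and 90% in w8. Below, single-sex values are given for all genes called and for list counts of 5 or more that moved by over 1.5 times. Female nuclei numbered 2, 129 and 0 in NB2 of w1, w2 and w4, so female counts against NB2 are not given.

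GCimm1 made up 4.50% of the kept nuclei in w1, with an exact 95% Clopper-Pearson interval of 3.77% to 5.32%. It made up 45.6% in w2 (44.1% to 47.1%) and 9.89% in w4 (8.97% to 10.9%). In w8 a single nucleus remained, 0.0292% of the library (0.000739% to 0.163%). These intervals do not overlap, but they cover counting error only and not differences between pools of mice. The deposited pseudo-time, a position along the fitted path from stem cell to mature neuron, had a median of 15.7 in w1, 16.9 in w2 and 17.1 in w4, with GCimm1 nuclei spanning 13.5 to 19.5.

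The 5 genes that mark GCimm1 in these data were used to check the label, and as they were chosen on the same nuclei their values are a description. Rgs6, a regulator of G protein signaling, stood at 2331, 2507 and 2282 CPM (UMIs of the gene per 1000000 UMIs summed over the nuclei of a library and cluster) in GCimm1 of w1, w2 and w4, against 569, 597 and 567 in NB1. Every GCimm1 library was above every NB1 library, by a fitted log2 fold change of 2.16 ± 0.21 (SE). Rgs6 was already at 1934 to 2184 CPM in NB2 and still at 1379 to 1960 in GCimm2, and neither difference was called (log2 0.32 ± 0.21 and 0.42 ± 0.22). Among all 13 clusters it was the only marker of the 5 with its highest pooled level in GCimm1.

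Epha6, a receptor for ephrin guidance cues, stood at 475, 940 and 1168 CPM in GCimm1 of w1, w2 and w4. The corresponding NB1 values were 47.0, 63.4 and 108, and the GCimm2 values were 1911, 1768 and 2038 in w2, w4 and w8, so that GCimm1 lay between both clusters without overlap. Ncam2, a cell adhesion molecule of growing axons, followed the same order with 484, 867 and 1015 CPM in GCimm1, 82.5 to 134 in NB1 and 2010 to 2099 in GCimm2. Camk4, a nuclear calcium/calmodulin kinase, was at 226, 419 and 480 CPM in GCimm1 and at 58.3 to 93.5 in NB1, while GCimm2 (432 to 500) overlapped GCimm1. Gabbr2, a subunit of the metabotropic GABA receptor, was at 438, 526 and 488 CPM in GCimm1, 82.9 to 96.9 in NB1 and 413 to 459 in GCimm2.

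Against NB1 all 5 markers were called higher, beside 8.04% of all genes tested. Against NB2 it was 4 of 5, beside 4.86%. Against GCimm2 none was higher, beside 3.11%, and Epha6 and Ncam2 were lower, beside 6.78%. The Epha6 call against GCimm2 was lost without w2 (log2 −0.89 instead of −1.03). Rgs6 was seen in 98.6% of GCimm1 nuclei, 55.2% of NB1, 98.1% of GCimm2 and 2.22% of the 45 oligodendrocyte nuclei, a cell type that should lack it, at median depths of 5046, 4058, 6979 and 4801 UMIs. After thinning each nucleus to 2000 UMIs, which left out 7 GCimm1 and 92 NB1 nuclei, the shares in GCimm1, NB1 and GCimm2 were 94.7%, 45.5% and 90.1%.

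**Figure D1:**
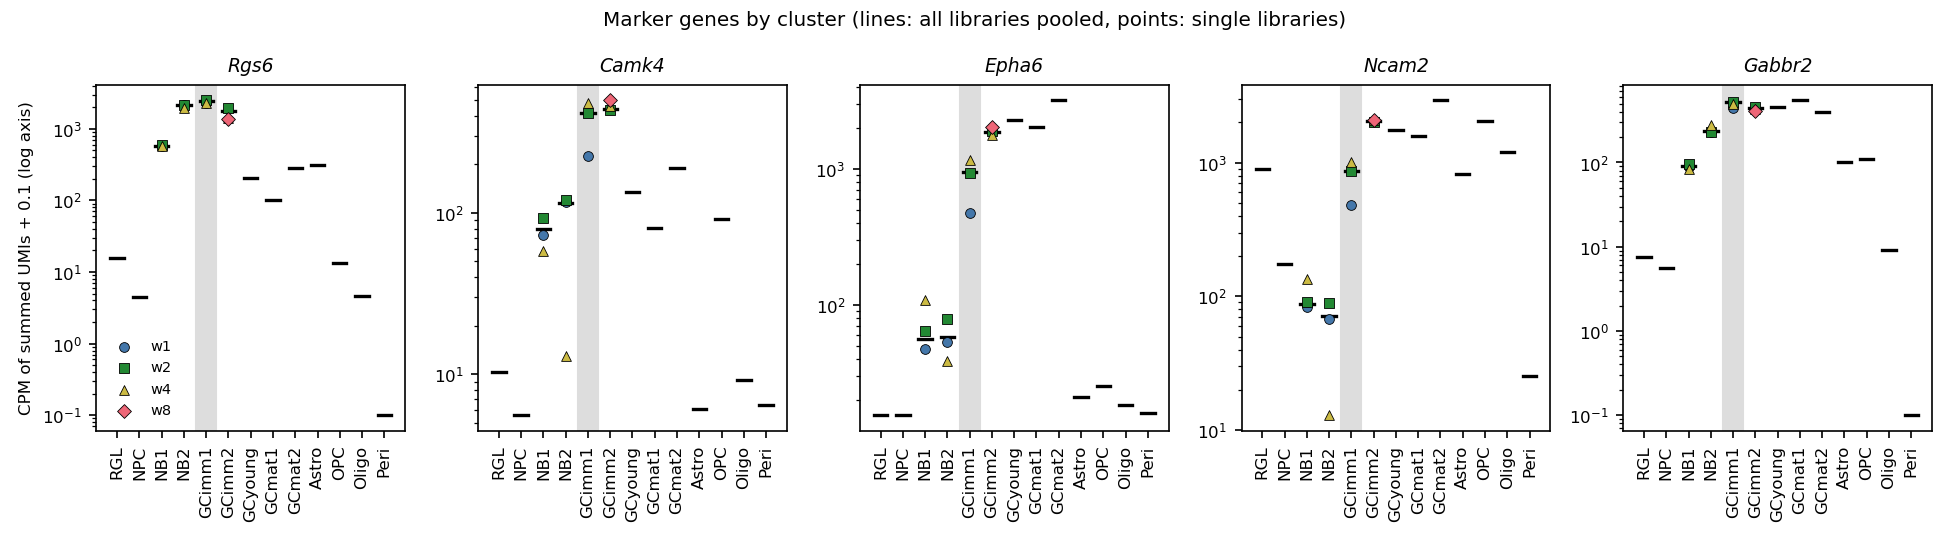
CPM of summed UMIs plus 0.1 (log axis) of the 5 markers in the 13 clusters, GCimm1 shaded. Black lines pool all libraries and points are single libraries of w1, w2, w4 and w8 with at least 10 nuclei, drawn for NB1, NB2, GCimm1 and GCimm2. Rgs6 peaks in GCimm1, whereas Epha6 and Ncam2 climb further in GCimm2.

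Markers of immature neurons were present. Many genes of this list and of the mature and progenitor lists below were reported by the study from these same nuclei. Their counts are therefore a description and no independent check of the label. Dcx (doublecortin) was at 400, 315 and 331 CPM in GCimm1 of w1, w2 and w4, between NB1 (411 to 484) and GCimm2 (209 to 227), and was called against neither. Prox1, the transcription factor of granule cell identity, differed little, with 937, 806 and 909 CPM in GCimm1 and 678 to 906 in GCimm2. Neurod1 and Tubb3 had 0 UMIs here and in the other neuronal clusters of these tables, so that they check nothing.

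Calb2 (calretinin), a transient protein of newborn granule cells, stood at 122, 115 and 65.2 CPM in GCimm1, against 27.7, 17.7 and 0 in GCimm2 of w2, w4 and w8. Calb2 did not overlap between these clusters and was 1.90 ± 0.23 log2 units higher in GCimm1. In NB2 it reached 368 to 602 CPM, above every GCimm1 library. Of 17 immature neuron genes tested, 10 were called higher than in GCimm2 and none lower, beside 3.11% and 6.78% of all genes (6 higher without w2, 4 in male nuclei). The same list was split against NB1, with 3 higher and 3 lower, beside 8.04% and 5.2%.

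Mature granule cell genes, which the study reported from these same nuclei, showed the reverse against GCimm2. Of 18 tested, 13 were lower than in GCimm2 and 1 was higher, beside 6.78% and 3.11% of all genes (7 and 1 without w2, 8 and 1 in male nuclei). The list was split against the neuroblasts. Against NB1 7 were higher and 3 lower, beside 8.04% and 5.2%, and against NB2 6 and 4, beside 4.86% and 3.39%. Tenm1, a teneurin of synaptic adhesion, was at 10.7, 33.6 and 70.8 CPM in GCimm1 and at 331, 447 and 886 in GCimm2, with no overlap and a log2 difference of −3.48 ± 0.28. Camk2a, the alpha subunit of a synaptic calcium/calmodulin kinase, was at 18.3, 96.7 and 115 CPM in GCimm1 and at 540 to 624 in GCimm2. Its w1 value in GCimm1 lay below NB1 of the same week (24.2), while w2 and w4 lay above NB1 (39.4 and 60.5). The fit called Camk2a higher than in NB1 (log2 1.19 ± 0.24), a call that was lost without w2 (0.91).

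Stem cell and progenitor genes were low. Eomes, a factor of intermediate progenitors, was at 1.53, 0.640 and 2.46 CPM in GCimm1, against 39.8, 27.6 and 44.8 in NB1. Of 17 such genes, 7 were lower than in NB1 and none was higher, beside 5.2% and 8.04% of all genes (4 lower without w2 and also in male nuclei). Against NB1, none of 8 astrocyte, 7 oligodendrocyte precursor, 8 vascular and leptomeningeal or 3 microglia genes was called. There 1 of 8 oligodendrocyte genes was lower (none without w2 or in nuclei of either sex alone), and of 4 interneuron genes Gad1 was higher and Reln lower. Against NB2 1 precursor gene was lower and 1 microglia and 2 interneuron genes were higher, beside 3.39% and 4.86% of all genes. Against GCimm2 1 vascular and 1 interneuron gene were lower, beside 6.78%. The precursor, microglia and vascular calls were absent in male nuclei. The summed astrocyte level was 348 to 362 CPM in GCimm1 libraries (10270 in astrocytes) and the summed oligodendrocyte level 102 to 114 CPM (16090 in oligodendrocytes). The vascular sum was 3.05 to 9.41 CPM (6074 in pericytes), the precursor sum 1.85 to 6.11 CPM (1856 in precursors) and the microglia sum 46.8 to 68.7 CPM.

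Gad1, the enzyme that makes GABA, is best known from interneurons but was present here at 67.2, 89.0 and 103 CPM. These values lay above all NB1 (35.2 to 48.7) and NB2 (9.05 to 38.4) libraries and within the GCimm2 range (63.9 to 113). Of 9 mossy cell and CA3 genes, 3 were higher than in NB1 and 1 was lower (2 and 0 without w2 and also in male nuclei), beside 8.04% and 5.2% of all genes, and their sum was 1354 to 1518 CPM in GCimm1 and 956 pooled in NB1.

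To ask which genes set GCimm1 apart from its neighbors, UMIs were summed per library and cluster and fitted with edgeR, with a term for the library. Over 11548 genes, calls needed a 1.5-fold change and an adjusted p (Benjamini-Hochberg) no higher than 0.05. The clusters were drawn from the same expression values, so a call is no independent evidence for the cluster. The spread was estimated over the 38 sums of all 13 clusters, and a call did not require the same sign in every library. Against NB1, 928 genes were higher in GCimm1 and 600 lower (13.2% of genes tested in either direction, 8.04% and 5.2% by direction). Against NB2, 561 were higher and 391 lower (8.24%, 4.86% and 3.39%). Against GCimm2, 359 were higher and 783 lower (9.89%, 3.11% and 6.78%). The same sign in every library holding both clusters was seen for 832 of the 928 and 578 of the 600 against NB1, for 487 of the 561 and 374 of the 391 against NB2, and for 358 of the 359 and 770 of the 783 against GCimm2. These libraries were w1, w2 and w4 for NB1 and NB2, but only w2 and w4 for GCimm2. Against the mean of the 12 other clusters, 2291 were higher and 641 lower (25.4%, 19.8% and 5.55%). This split moved with the method, to 2038 and 755 under RLE factors in edgeR and 1794 and 1241 with DESeq2. DESeq2 differs in its model and test as well as in the scaling.

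These counts leaned on w2, which held 79.2% of the GCimm1 nuclei. Without w2, calls fell to 812 against NB1, 565 against NB2 and 430 against GCimm2, and of the original calls 783, 533 and 424 remained, none with the other sign. With male nuclei only, 945, 562 and 499 genes were called against NB1, NB2 and GCimm2. With female nuclei only it was 1260 against NB1 and 1028 against GCimm2. Genes of the lists and the naming rule that were called against NB1, NB2 and GCimm2 were followed in male nuclei alone. There 194, 150 and 118 kept their call, and 39, 42 and 74 kept only their sign. Against NB1 2 turned their sign, uncalled, and the rest were not tested. In female nuclei alone 212 kept their call against NB1 and 170 against GCimm2, and 33 and 25 kept only their sign. Each fit held fewer nuclei. Called genes were long, with a median length of 99.5 kb for those higher and 70.7 kb for those lower than NB1, against 32.9 kb for all genes tested.

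Most genes called against NB1 or GCimm2 were not called against both, though a gene that was not called may still differ. Of those higher than NB1, 396 were lower than GCimm2 (3.43% of genes tested), 507 were not called against GCimm2 and 25 were higher than GCimm2 too. Of those lower than NB1, 110 were higher than GCimm2, 446 were not called and 44 were also lower than GCimm2. Another 343 genes were not called against NB1 and lower than GCimm2, and 224 were not called against NB1 and higher than GCimm2. Both comparisons share the GCimm1 sums, so these counts are not independent of each other.

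**Figure D2:**
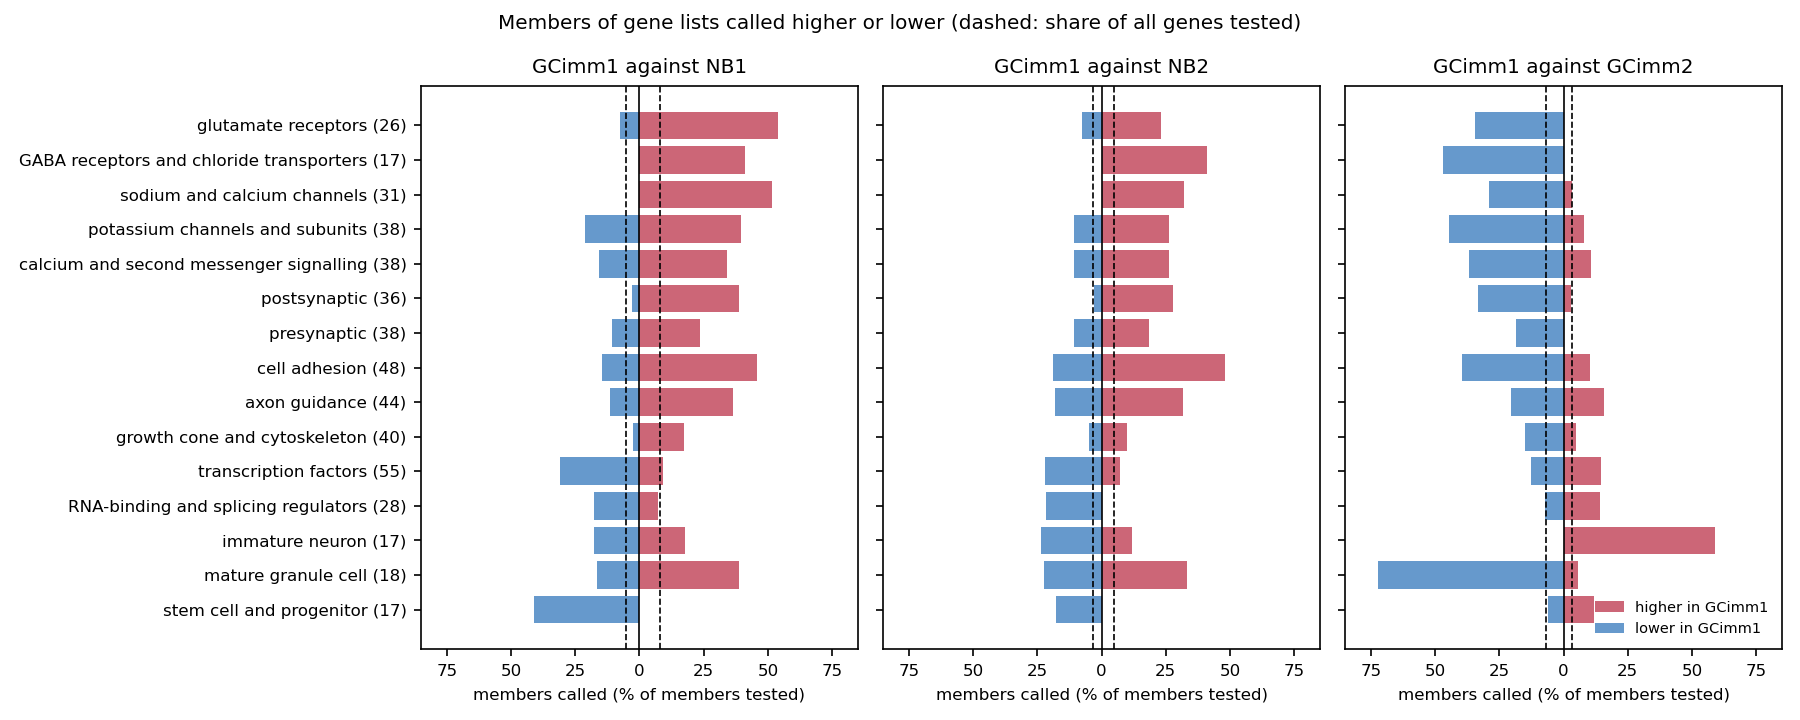
Share of tested members of each gene list called higher (right) or lower (left) in GCimm1 against NB1, NB2 and GCimm2, with the number tested in brackets. Dashed lines give the share among all genes tested. Receptor and postsynaptic lists extend mainly to the right against NB1 and to the left against GCimm2, while potassium channels extend both ways.

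Of 26 glutamate receptor genes tested, 14 were higher and 2 lower than in NB1 (9 and 1 without w2), beside 8.04% and 5.2% of all genes, with a median log2 fold change of 0.87 beside −0.02. Against GCimm2, none was higher and 9 were lower, beside 3.11% and 6.78%, with a median of −0.50 beside 0.02 (4 lower without w2, 5 in male nuclei). Most were not called against GCimm2. Against NB2, 6 were higher and 2 lower (4 and 0 in male nuclei), beside 4.86% and 3.39%.

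Grm5, a metabotropic receptor that couples to phospholipase C, was at 1121, 1556 and 1491 CPM in GCimm1 of w1, w2 and w4, against 334 to 419 in NB1 and 2045 to 2298 in GCimm2. The difference from NB1 was 1.98 ± 0.24, and that from GCimm2 (−0.70 ± 0.24) was no longer called without w2 (−0.73), w4 (−0.74) or w8 (−0.76).

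Grin2a, an NMDA receptor subunit of maturing synapses, was level over the weeks at 403, 437 and 416 CPM. Its NB1 values were 85.2 to 135 and its GCimm2 values 933 to 1102, whereas the NB2 libraries (328 to 410) overlapped those of GCimm1 (log2 0.23 ± 0.27). The lower level than in GCimm2 (−1.26 ± 0.27) was not called without w2 (−1.05). Grin1, the obligate NMDA subunit, was 0.81 ± 0.18 log2 units higher than in NB1, and its difference from GCimm2 (−0.69 ± 0.18) was not called without w2 (−0.72) or w4 (−0.77).

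Gria3, an AMPA receptor subunit, was at 44.3, 120 and 139 CPM in GCimm1, and at 26.9, 34.3 and 47.1 in NB1 of the same weeks. In GCimm2 it reached 280 to 313 CPM, above every GCimm1 library (log2 −1.49 ± 0.21). Gria1 and Gria4 were higher than in NB1 by 0.94 and 0.79 and were not called against GCimm2. Without w2 neither was called (0.80 for Gria1 and 0.57 for Gria4).

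Grik3, a kainate receptor subunit, departed from the common order. At 50.4, 45.1 and 49.9 CPM it lay above NB1 (6.13 to 16.9) and above GCimm2 (6.66 to 30.6). The difference from NB1 was 2.27 ± 0.29 and that from GCimm2 was not called (0.61 ± 0.27). Grm3 was the opposite case, at 10.5 to 17.9 CPM in GCimm1 and below both NB1 (20.2 to 42.3) and GCimm2 (20.0 to 66.6). The Grm3 call against NB1 (−0.96 ± 0.30) was lost without w1 (−0.85) or w4 (−0.86).

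Of 17 GABA receptor and chloride transporter genes tested, 7 were higher than in NB1 and none was lower, with a median log2 fold change of 0.72, and the count was also 7 and 0 against NB2. The shares of all genes higher in GCimm1 were 8.04% and 4.86%. Against GCimm2 8 were lower, beside 6.78%, and none higher (2 lower without w2, 5 in male nuclei). Gabra6 had 0 UMIs in GCimm1.

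Gabrb1, a beta subunit of the GABA-A receptor, was at 244, 560 and 717 CPM in GCimm1 of w1, w2 and w4. In NB1 it was at 126, 159 and 105, and in GCimm2 at 1446 to 1664, with no overlap on either side. The log2 fold change was 2.07 ± 0.26 against NB1 and −1.74 ± 0.26 against GCimm2. Gabra5, an alpha subunit of extrasynaptic receptors, was at 124, 245 and 268 CPM, above NB1 (30.8 to 55.8) by 2.27 ± 0.18 and below GCimm2 (325 to 413) by −0.64 ± 0.17, the latter not called without w2 (−0.71) or w8 (−0.53). Gabrg3, a gamma subunit, was at 211, 392 and 485 CPM and 2.23 ± 0.23 above NB1. Its call against GCimm2 (−0.74 ± 0.21) was lost without w1 (−0.58) or w2 (−0.59).

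Slc12a5 encodes the chloride exporter KCC2. It stood at 10.7, 24.8 and 24.6 CPM in GCimm1, against 2.99, 5.14 and 11.2 in NB1 and 46.6 to 59.96 in GCimm2. Within each week GCimm1 was above NB1 (log2 2.20 ± 0.29) and every GCimm1 library was below every GCimm2 library (−1.27 ± 0.21, not called without w2, −1.11). Slc12a2, the chloride importer NKCC1, was at 65.6, 48.2 and 48.6 CPM and was not called against NB1 (−0.49 ± 0.20), NB2 or GCimm2.

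**Figure D3:**
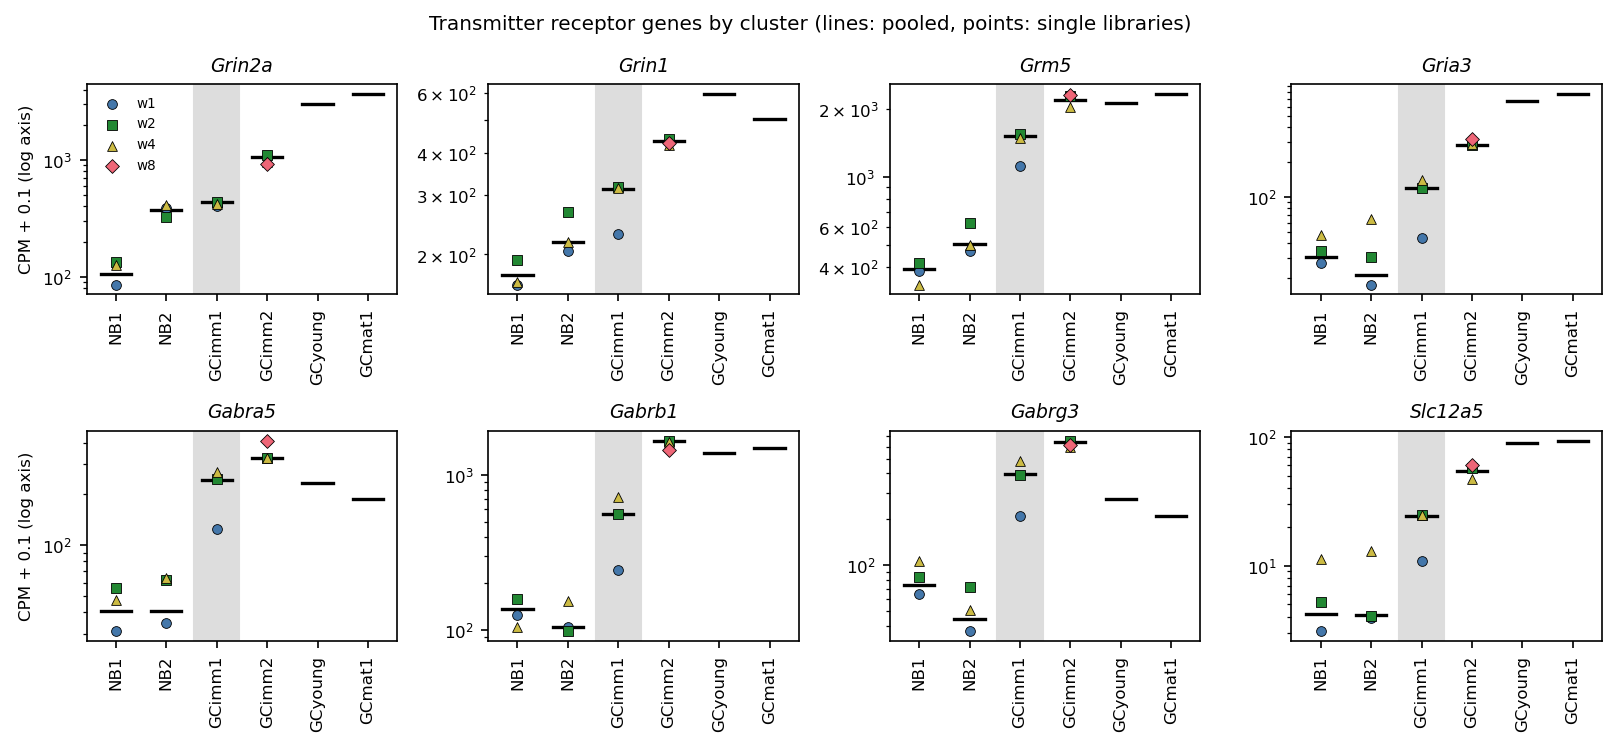
CPM plus 0.1 (log axis) of 8 transmitter receptor and chloride transporter genes in NB1, NB2, GCimm1 (shaded), GCimm2, GCyoung and GCmat1. Lines pool all libraries and points are single libraries, drawn for the first 4 clusters. In all 8 panels the pooled GCimm1 level lies above NB1 and below GCimm2.

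Sodium and calcium channel genes were higher than in NB1 for 16 of 31 tested, with none lower (12 and 1 without w2), beside 8.04% and 5.2% of all genes. Against GCimm2 9 were lower and 1 was higher, beside 6.78% and 3.11% (2 and 0 without w2, 5 and 0 in male nuclei). Higher than in NB2 were 10, beside 4.86% (6 without w2). Fgf14, an intracellular factor that binds sodium channels at the axon initial segment, was at 1586, 3081 and 3241 CPM in GCimm1 and at 486 to 506 in NB1. This was a difference of 2.49 ± 0.23 with no overlap, and Fgf14 was not called against GCimm2 (−0.65 ± 0.23). Cacna1e, the pore of R-type calcium channels, was at 363, 570 and 749 CPM, above NB1 (171 to 207) and NB2 (52.2 to 98.3) and below GCimm2 (1019 to 1097). The GCimm2 difference of −0.91 ± 0.24 was not called without w2 (−0.80).

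Potassium channel genes moved in both directions. Of 38 tested, 15 were higher and 8 lower than in NB1, and 3 were higher and 17 lower than in GCimm2 (8 and 5, and 2 and 10, without w2). The shares of all genes were 8.04% and 5.2% against NB1 and 3.11% and 6.78% against GCimm2. Against NB2 10 were higher and 4 lower, beside 4.86% and 3.39% (5 and 2 without w2). Kcnd2, an A-type channel, was at 554, 860 and 1045 CPM between NB1 (248 to 312) and GCimm2 (2083 to 2518). Kcnj6, a G protein-gated inward rectifier, was at 41.2, 171 and 228 CPM, above NB1 (24.7 to 35.9) and below GCimm2 (408 to 436).

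Kcnq5, a channel of the M-current, ran the other way. It was at 208, 330 and 182 CPM in GCimm1, below NB1 (439 to 667) by −1.15 ± 0.21 and above GCimm2 (83.3 to 167) by 1.02 ± 0.24, the latter not called without w2 (0.69). Kcna1 and Kcnk9 had 0 UMIs in GCimm1.

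Kcnip4, an accessory subunit of A-type channels, was lowest in GCimm1 among these clusters. It stood at 59.5, 78.2 and 136 CPM, against 171 to 390 in NB1, 158 to 320 in NB2 and 473 to 1766 in GCimm2. All 3 differences were called, at −1.59 ± 0.37, −1.25 ± 0.39 and −3.41 ± 0.39, the call against NB2 being lost without w1 (−0.66).

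In calcium and second messenger signaling, 13 of 38 genes were higher and 6 lower than in NB1, and 4 were higher and 14 lower than in GCimm2 (8 and 6, and 1 and 9, without w2, and 2 and 10 against GCimm2 in male nuclei). Of all genes, 8.04% and 5.2% were called against NB1 and 3.11% and 6.78% against GCimm2. Ryr2, a calcium release channel of the endoplasmic reticulum, was at 130, 318 and 230 CPM in GCimm1. It lay between NB1 (37.6 to 51.9) and GCimm2 (782 to 1086) without overlap, at 2.40 ± 0.24 and −2.02 ± 0.22. Plcb4, a phospholipase C downstream of metabotropic receptors, was the gene with the largest excess over GCimm2 under the naming rule. It stood at 186, 71.9 and 70.2 CPM in GCimm1, against 216 to 269 in NB1 and 3.02 to 6.66 in GCimm2. The log2 fold change was −1.15 ± 0.17 and 4.34 ± 0.29 (edgeR adjusted p = 6.1e-17).

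Postsynaptic genes were higher than in NB1 for 14 of 36 tested and lower for 1, and against GCimm2 12 were lower and 1 was higher (8 and 1, and 8 and 1, without w2). All genes gave 8.04% and 5.2% against NB1 and 6.78% and 3.11% against GCimm2, the last near the share in the list. Lrfn5, a synaptic adhesion molecule, was at 324, 709 and 728 CPM in GCimm1, against 19.0 to 65.0 in NB1, 52.2 to 103 in NB2 and 1290 to 1755 in GCimm2. It was 3.98 ± 0.29 above NB1 and 1.24 ± 0.25 log2 units below GCimm2, without overlap in any of the 3 comparisons (against GCimm2 not called without w2, −1.03). Dlg2, the scaffold PSD-93, was at 878, 1880 and 2333 CPM, between NB1 (424 to 547) and GCimm2 (4386 to 4670). Dlgap2, a partner of such scaffolds, was at 87.0, 136 and 184 CPM and 2.54 ± 0.27 log2 units below GCimm2.

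Lrrtm3, a leucine-rich partner of neurexins, was the 1 postsynaptic gene above GCimm2. It stood at 470, 387 and 369 CPM, with 161 to 257 in NB1, 64.1 to 209 in NB2 and 112 to 233 in GCimm2. All GCimm1 libraries exceeded those of the other 3 clusters, by 1.08 ± 0.19, 1.66 ± 0.22 and 1.35 ± 0.21.

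Of 38 presynaptic genes, 9 were higher and 4 lower than in NB1, beside 8.04% and 5.2% of all genes, with a median log2 fold change of 0.15. None was higher and 7 were lower than in GCimm2, beside 3.11% and 6.78% (5 without w2, 3 in male nuclei). Rimbp2, a scaffold of the active zone, was at 3.05, 14.0 and 19.7 CPM in GCimm1 and at 113 to 161 in GCimm2 (−3.45 ± 0.28). Syt1, a calcium sensor of release, was at 1342, 1255 and 1439 CPM, above NB1 (642 to 685) by 1.11 ± 0.26 and close to GCimm2 (1462 to 1490, −0.09 ± 0.27). Syn2, a synapsin, was low at 119, 155 and 180 CPM, below every library of NB1 (380 to 429) and NB2 (258 to 448), while its GCimm2 values (133 to 279) overlapped. The Syn2 call against NB2 was lost without w1 (−0.72) or w4 (−0.84), and that against GCimm2 without w2 (−0.54).

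Axon guidance genes were higher than in NB1 for 16 of 44 and lower for 5 (14 and 3 without w2), beside 8.04% and 5.2% of all genes. They were higher than in GCimm2 for 7 and lower for 9, beside 3.11% and 6.78% (5 and 3 without w2, 2 and 7 in male nuclei). Slit3, a secreted ligand of Robo receptors, was at 1662, 1068 and 1729 CPM, against 361 to 479 in NB1, and Robo1 was at 615, 715 and 750 CPM against 195 to 221. They were 1.86 ± 0.27 and 1.83 ± 0.22 above NB1 and were not called against GCimm2. Nrp1, the semaphorin co-receptor neuropilin-1, was at 1582, 1433 and 1837 CPM, against 439 to 622 in NB1.

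The semaphorin Sema3c was higher than in NB1 and GCimm2 alike. It stood at 1653, 1450 and 1270 CPM, against 809 to 922 in NB1 and 535 to 685 in GCimm2, and NB2 (1729 to 1844) was above every GCimm1 library. The log2 fold changes were 0.89 ± 0.23 and 1.10 ± 0.25, the latter not called without w4 (1.00).

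Unc5d, a netrin receptor of migrating neurons, was nearly absent. GCimm1 held 4.58, 17.5 and 4.31 CPM, against 374 to 483 in NB1 and 629 to 1755 in NB2. It was the gene with the largest deficit against NB2 under the naming rule (−6.11 ± 0.39, edgeR adjusted p = 2.4e-18) and 4.91 ± 0.37 log2 units below NB1, and GCimm2 held 0 to 8.58 CPM. Epha5, an ephrin receptor, was at 9.16, 60.6 and 110 CPM in GCimm1 and 532 to 853 in GCimm2 (−3.47 ± 0.27).

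Of 48 cell adhesion genes, 22 were higher and 7 lower than in NB1, 23 were higher and 9 lower than in NB2, and 5 were higher and 19 lower than in GCimm2. Among all genes the shares were 8.04% and 5.2%, 4.86% and 3.39%, and 3.11% and 6.78%. Cntn6, a contactin, was at 22.9, 121 and 84.9 CPM in GCimm1, against 2.20 to 5.87 in NB1 and 0 to 3.83 in NB2 (4.35 ± 0.29 and 4.09 ± 0.39). GCimm2 was higher still, at 150 to 261 CPM. Cdh8, a cadherin, was at 1214, 1281 and 1465 CPM, against 208 to 296 in NB1 (2.44 ± 0.26).

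Cdh4, R-cadherin, set GCimm1 apart from NB2. It was at 44.3, 20.7 and 12.3 CPM in GCimm1 and at 957, 295 and 1255 in NB2 (−4.79 ± 0.29), with 68.4 to 87.4 in NB1 and 0.432 to 6.66 in GCimm2. Adgrl2 (latrophilin-2), Cdh20 and Ntm (neurotrimin) were also far below NB2, at −6.07 ± 0.35, −5.61 ± 0.33 and −5.05 ± 0.35. The tetraspanin Tspan18 was at 218, 463 and 590 CPM in GCimm1 and 2.44, 10.6 and 12.8 in NB2 (6.33 ± 0.33), while NB1 held 60.02 to 102.

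Of 40 growth cone and cytoskeleton genes, 7 were higher and 1 lower than in NB1, beside 8.04% and 5.2% of all genes, with a median log2 fold change of 0.07 (4 and 0 without w2 and also in male nuclei). Against GCimm2 2 were higher and 6 lower, beside 3.11% and 6.78% (0 and 3 without w2, 0 and 4 in male nuclei). Of the 41 genes listed, 8 had their highest pooled level in GCimm1, beside 5.58% of genes with at least 200 UMIs there. It was 7 of 49 axon guidance, 3 of 49 cell adhesion and 3 of 43 potassium channel genes. Plppr1, a membrane protein of neurite outgrowth, was at 461, 569 and 693 CPM in GCimm1, 2.23 log2 units above NB1 and 0.88 below GCimm2.

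Transcription factor genes were more often lower than higher against NB1. Of 55 tested, 17 were lower and 5 higher, beside 5.2% and 8.04% of all genes, with a median log2 fold change of −0.18 (13 and 3 without w2). Against GCimm2 8 were higher and 7 lower, beside 3.11% and 6.78% (3 and 2 without w2, 5 and 3 in male nuclei). Sox5 was at 59.5, 27.7 and 30.2 CPM in GCimm1, against 300 to 400 in NB1, 232 to 308 in NB2 and 9.98 to 20.0 in GCimm2. These ranges did not overlap, and GCimm1 was 3.20 ± 0.20 log2 units below NB1. Sox4 was at 147, 141 and 100 CPM, below NB1 (257 to 388) by −1.09 ± 0.17 and above GCimm2 (33.3 to 56.1) by 1.20 ± 0.20. Sox11, a related factor, was close to NB1 with 585, 565 and 500 CPM (−0.15 ± 0.15) and above GCimm2 by 0.67 ± 0.17, a call lost without w2 (0.69) or w4 (0.58).

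Bcl11b (Ctip2), a factor of granule cell maturation, was at 199, 221 and 292 CPM, against 68.4 to 91.3 in NB1 (1.6 ± 0.19), and was not called against GCimm2 (−0.45 ± 0.18). Neurod2, a proneural bHLH factor, was at 176, 146 and 155 CPM, above NB1 (77.6 to 91.9) by 0.93 ± 0.18 and not called against NB2 or GCimm2. Rora, a nuclear receptor, was at 77.9, 74.4 and 77.6 CPM and 2.42 ± 0.23 log2 units below NB1 (374 to 493).

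Among 28 RNA-binding and splicing regulators, 5 were lower and 2 higher than in NB1, beside 5.2% and 8.04% of all genes, the latter near the share in the list. Elavl4, which binds AU-rich messages in neurons, was at 16.8, 9.14 and 5.54 CPM, against 110 to 164 in NB1 (−3.61 ± 0.21). Elavl2 was at 150, 114 and 99.7 CPM, against 452 to 618 in NB1 and 39.7 to 59.96 in GCimm2, so it lay between the clusters without overlap. Rbfox1, a splicing regulator, was higher than in NB1 by 1.06 and not called against GCimm2.

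Some of the largest differences fell outside these groups. Slc24a4, a potassium-dependent sodium/calcium exchanger, was at 59.5, 71.0 and 61.6 CPM in GCimm1, against 2.36 to 7.58 in NB1 (3.98 ± 0.31). Trpc7, a cation channel, was at 13.7, 16.8 and 24 CPM against 0 to 0.786 in NB1, while GCimm2 held 6.66 to 16.8 and NB2 0 to 23.0. Dlx6os1, a long noncoding RNA, had 2 UMIs in all of GCimm1 and stood at 23.3, 12.7 and 0 CPM in NB1. Its lower sign in w4 thus came from the small count added before taking logs and not from the levels.

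Rmst, a long noncoding RNA of neurogenesis, was at 1.53, 6.03 and 1.23 CPM in GCimm1, against 100.3 to 132 in NB1 and 145 to 423 in NB2. The noncoding A230077H06Rik had the largest fitted excess over NB2, where its level was 0 in all 3 libraries, and stood at 4.58, 17.2 and 12.9 CPM in GCimm1. Gsg1l, an auxiliary AMPA receptor subunit, was at 226, 88.6 and 50.5 CPM in GCimm1 and at 0 to 5.19 in GCimm2 (3.97 ± 0.33). Cdh13, T-cadherin, was at 1.53 to 3.56 CPM in GCimm1 and at 40.0 to 64.7 in GCimm2 (−4.45 ± 0.39).

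The 25 genes above both NB1 and GCimm2 made up 0.216% of genes tested, and were named after their values were seen. Of these, 8 were also above NB2, namely Ackr3, Alcam, Ctnna3, Lrrtm3, Mob3b, Pappa2, Tacr1 and Tiam2. Tiam2, an exchange factor for the GTPase Rac in growth cones, was at 379, 249 and 352 CPM in GCimm1. The other clusters held 105 to 147 (NB1), 25.6 to 64.8 (NB2) and 113 to 154 CPM (GCimm2), and none overlapped GCimm1. Alcam, an adhesion molecule, was at 446, 443 and 473 CPM, with 250.9 to 299 in NB1, 218 to 220 in NB2 and 180 to 340 in GCimm2.

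The nicotinic receptor subunit Chrna7 was among the 25, with 365, 272 and 283 CPM in GCimm1, 122 to 153 in NB1 and 120 to 201 in GCimm2. Lypd6 and Lypd6b, small proteins that bind nicotinic receptors, were in the same set. Lypd6 was at 373, 305 and 236 CPM in GCimm1 against 85.1 to 124 in NB1 and 98.4 to 172 in GCimm2. For all 3 genes NB2 was close to GCimm1 (log2 0.05 to 0.18).

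The 44 genes below both made up 0.381% of genes tested. Of these, 19 were also below NB2, among them Kcnip4, Frmpd4 and Atxn1. Frmpd4, a postsynaptic scaffold protein, was at 108, 168 and 244 CPM in NB1, at 6.11, 16.4 and 14.2 in GCimm1 and at 65.8, 94.9 and 193 in GCimm2. Atxn1 followed the same course, with 362 to 435 CPM in NB1, 113, 175 and 157 in GCimm1 and 361 to 466 in GCimm2.

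Few genes peaked in GCimm1 by a wide margin. Of 8147 genes with at least 200 UMIs in the cluster, 455 (5.58%) had their highest pooled CPM there among the 13 clusters. Within w2 alone 283 genes did, and 187 of the 455 were among them. The next highest cluster was GCimm2 for 150, NB1 for 126 and NB2 for 72 of these. Only 5 stood at least 1.5-fold above every other cluster and 1 at least 2-fold, and 104 were above NB1, NB2 and GCimm2 in every library. The share was 8.65% of 7479 genes in NB1, 10.1% of 3590 in NB2 and 4.72% of 5632 in GCimm2, with 0, 7 and 6 genes at least 2-fold above the rest. Each share counts only genes with at least 200 UMIs in that same cluster, which favors a high level there. The shares are therefore a description and cannot be set against each other.

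Sostdc1, a secreted antagonist of BMP and WNT signaling, was the 1 gene at 2-fold. It had 4.58, 36.6 and 19.1 CPM in GCimm1 of w1, w2 and w4 and 0 to 10.8 in NB1, 3.13 to 19.9 in NB2 and 0 to 9.78 in GCimm2. In the same week GCimm1 was the highest of these clusters each time, but its w1 value lay below w2 values of the other clusters, and Sostdc1 was too low in most sums for the test. Ackr3, a scavenger receptor for the chemokine CXCL12, was at 56.5, 78.0 and 58.5 CPM in GCimm1. It was at 1.73 to 6.12 in NB1, 13.9 to 38.4 in NB2 and 13.3 to 35.3 in GCimm2, all below GCimm1 (4.23 ± 0.29, 1.94 ± 0.30 and 1.26 ± 0.23).

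Tacr1, the substance P receptor, was at 116, 127 and 188 CPM in GCimm1, against 24.7 to 32.3 in NB1 and 46.3 to 90.2 in GCimm2. In NB2 of w4, which held 18 nuclei, it reached 218 CPM and exceeded GCimm1 of the same week. Pappa2, a protease of insulin-like growth factor binding proteins, was at 174, 167 and 265 CPM, against 29.1 to 48.0 in NB1, 89.7 to 137 in NB2 and 58.1 to 147 in GCimm2. Without w2, the calls of Tacr1 (0.71 and 0.99) and Pappa2 (0.78 and 0.71) against NB2 and GCimm2 were lost, and without w4 that of Pappa2 against NB2 (0.57).

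Syndig1, which binds AMPA receptors at synapses, was at 351, 413 and 424 CPM in GCimm1 and at 179 to 196 in NB1, 248 to 346 in NB2 and 220 to 269 in GCimm2. Kitl, the ligand of the receptor Kit, was at 307, 297 and 264 CPM, against 188 to 209, 167 to 201 and 175 to 219 in the same clusters. Both genes separated GCimm1 from all libraries of the other 3 clusters, but neither was called against GCimm2. The Kitl call against NB1 and the Syndig1 call against NB2 were lost without w2 (0.60 each). In GCyoung the pooled level of Kitl was 50.1 CPM. Prkch, a protein kinase C, was at 44.3, 59.8 and 63.4 CPM in GCimm1, and its pooled level was 37.6 CPM in NB1, the next highest cluster.

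**Figure D4:**
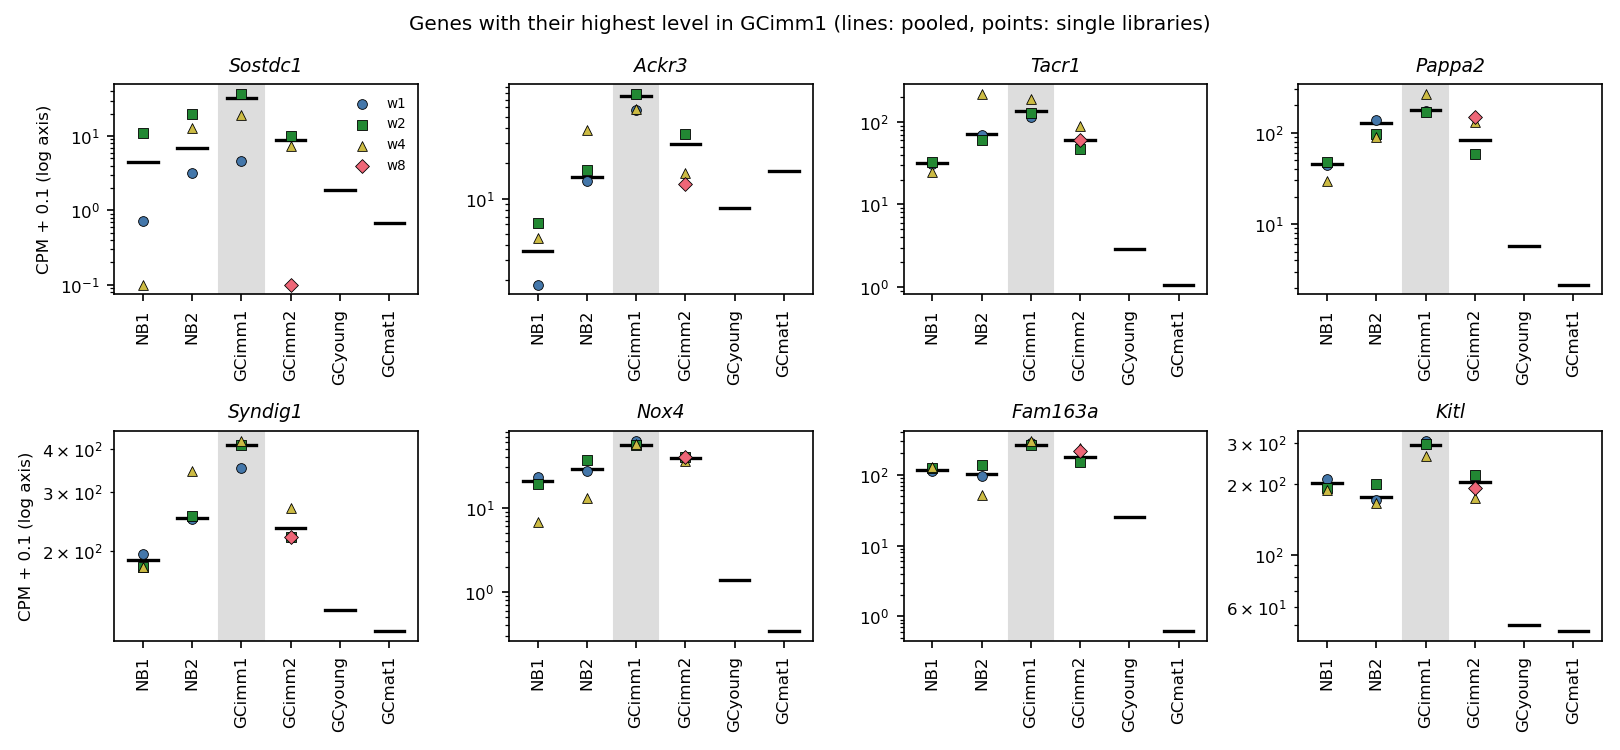
CPM plus 0.1 (log axis) of 8 genes with their highest pooled level in GCimm1 (shaded), in NB1, NB2, GCimm1, GCimm2, GCyoung and GCmat1. Lines pool all libraries and points are single libraries, drawn for the first 4 clusters. The margin over the next cluster is widest for Sostdc1, at 32.8 against 8.82 CPM in GCimm2.

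The promoters of the 5 markers and of the 12 genes that most exceeded the other clusters were searched for E-boxes, the sites bound by proneural bHLH factors such as Neurod2. RefSeq windows (GRCm38.p6) of 300 bases, from 250 before to 50 after the start, were at hand for 11 of these 17 genes. The letters searched were CAGATG, on both strands and thus also CATCTG, and the palindrome CAGCTG. Of the 11 windows, 3 held at least one of them, beside 30.6% of 32851 promoters, so the share was near the background. The 3 windows are shown 5′ to 3′ on the strand of the gene, with the E-box letters in capitals: Nox4 (an NADPH oxidase) at chr7:87246399-87246698 on the plus strand, Fam163a at chr1:156204977-156205276 on the minus strand and Epha6 at chr16:60605482-60605781 on the minus strand.
Nox4: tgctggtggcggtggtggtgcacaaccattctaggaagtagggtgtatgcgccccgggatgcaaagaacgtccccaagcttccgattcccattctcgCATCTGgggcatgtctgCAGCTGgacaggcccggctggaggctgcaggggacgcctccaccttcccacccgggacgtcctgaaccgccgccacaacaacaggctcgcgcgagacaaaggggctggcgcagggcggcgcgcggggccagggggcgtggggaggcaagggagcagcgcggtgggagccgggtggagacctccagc
Fam163a: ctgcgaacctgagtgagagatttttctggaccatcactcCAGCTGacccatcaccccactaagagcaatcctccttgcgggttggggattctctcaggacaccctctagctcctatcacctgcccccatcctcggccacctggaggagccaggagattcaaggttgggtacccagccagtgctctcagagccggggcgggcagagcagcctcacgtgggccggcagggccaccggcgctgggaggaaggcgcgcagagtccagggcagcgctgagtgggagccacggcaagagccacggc
Epha6: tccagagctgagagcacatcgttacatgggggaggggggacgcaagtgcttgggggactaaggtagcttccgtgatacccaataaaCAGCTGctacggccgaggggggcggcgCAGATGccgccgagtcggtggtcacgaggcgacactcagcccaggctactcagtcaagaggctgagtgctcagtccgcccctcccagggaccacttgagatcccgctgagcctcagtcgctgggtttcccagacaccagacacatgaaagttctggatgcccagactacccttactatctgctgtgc

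The letters began 153 and 136 bases before the start in Nox4, 211 before it in Fam163a, and 164 and 137 before it in Epha6. Nox4 was at 62.6, 55.3 and 56.6 CPM in GCimm1, 6.72 to 22.8 in NB1 and 35.4 to 40.0 in GCimm2. Fam163a was at 281, 260 and 304 CPM in GCimm1, 114 to 128 in NB1 and 149 to 237 in GCimm2. No binding was measured in these data.

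Within GCimm1, nuclei differed along pseudo-time. The cluster was split at its quartiles (16.1, 16.9 and 17.8) into 611, 610, 610 and 611 nuclei with a median of 3839, 5008, 5256 and 6593 UMIs. Pseudo-time came from the same expression values, so the course is a description. Of 6440 genes with at least 100 UMIs in the first or the last quartile, 227 were at least 2-fold higher in the last quartile and 68 at least 2-fold lower. In w2 alone the counts were 248 and 81, of which 216 and 65 were in both sets.

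Cdh11, a cadherin, went from 21.8 through 51.5 and 130 to 258 CPM over the 4 quartiles. In w4 alone, Cdh11 took the same course, from 21.3 to 172 CPM. Lrfn5 went from 171 to 1213 CPM, Ccbe1, a secreted matrix protein, from 42.0 to 428, Ryr2 from 106 to 551 and Gabrb1 from 236 to 967. Slc12a5 went from 7.92 to 45.4 CPM and Camk2a from 32.5 to 198, most of the latter between the third quartile (67.3) and the last.

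Other genes took the opposite course. Plcb4 went from 178 through 97.9 and 50.3 to 22.6 CPM, and in w4 alone from 269 to 21.98. Nell1, a secreted glycoprotein, went from 807 to 249 CPM, the protocadherin Pcdh7 from 803 to 262, Sox5 from 46.3 to 12.3 and Elavl2 from 169 to 72.1. Rgs6 went from 1843 to 2797 CPM, and Dcx went from 348 to 287. Sema3c stayed between 1337 and 1539 CPM in all quartiles.

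**Figure D5:**
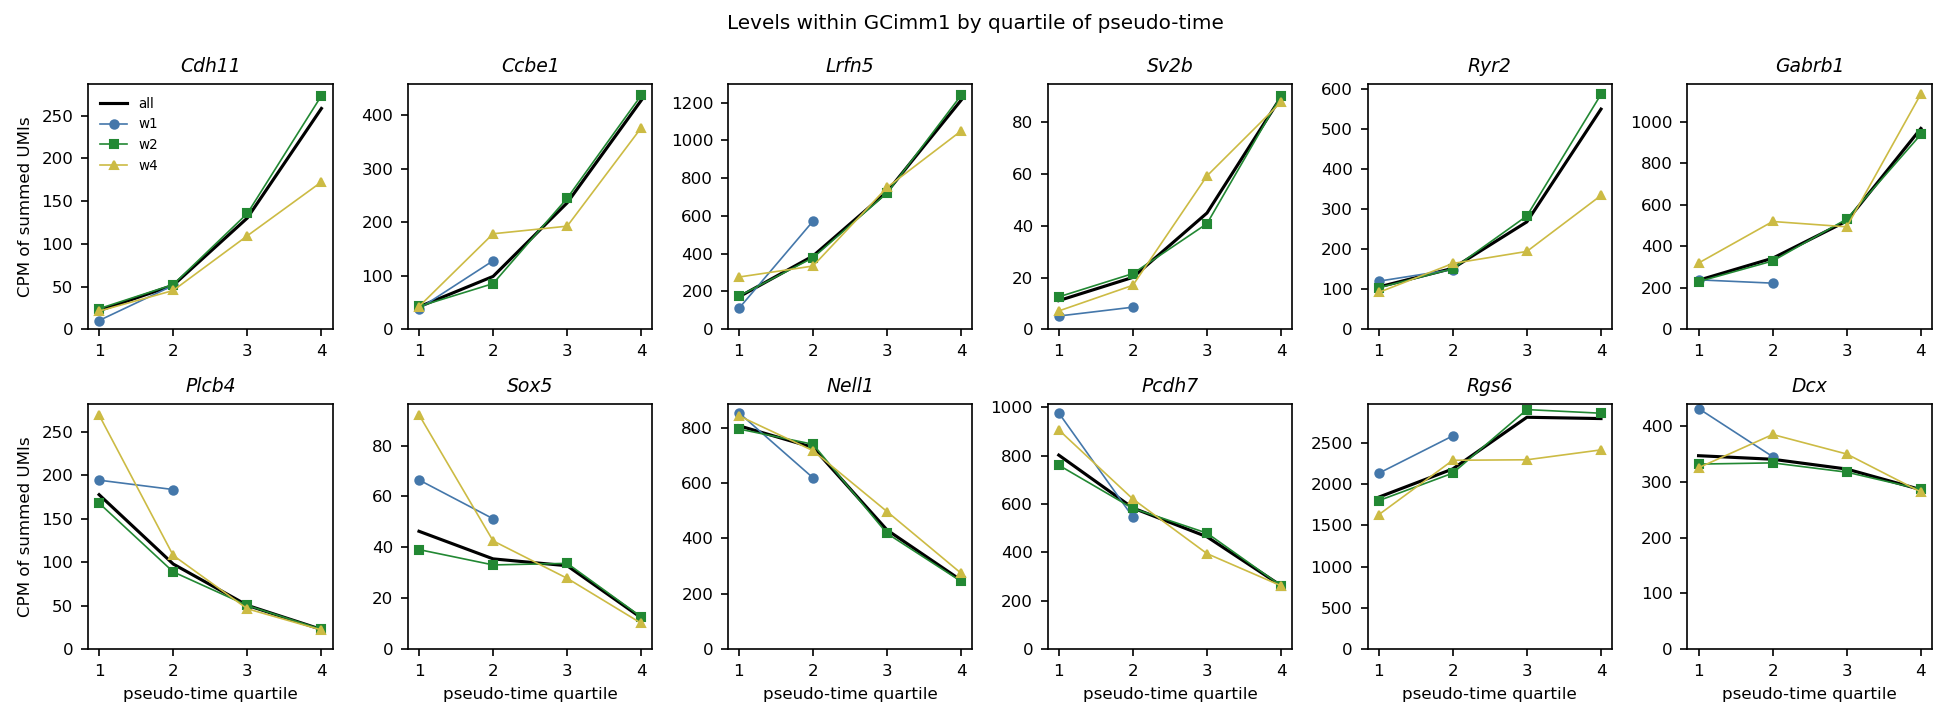
CPM of summed UMIs (linear axes from 0) of 12 genes in the 4 pseudo-time quartiles of GCimm1. Black lines pool all libraries and colored points are single libraries where a quartile held at least 20 nuclei. The upper 6 genes climb and Plcb4, Sox5, Nell1 and Pcdh7 decline from the first to the last quartile in w2 and w4 alike.

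The weeks were compared on counts alone. Of 9312 genes, 558 were at least 2-fold higher and 95 at least 2-fold lower in w2 than in w1 (7.01% in all), with counting intervals apart. Between w2 and w4, 48 were higher and 119 lower in w4 of 9428 genes (1.77%), and between w1 and w4 it was 132 and 47 of 4105 (4.36%). The number of genes that can be told apart depends on depth, and w1, w2 and w4 held 655055, 10945220 and 1624674 UMIs in GCimm1. At 2000 UMIs per nucleus it was 499 of 6611 (7.55%), 88 of 7001 (1.26%) and 88 of 1897 genes (4.64%). Pseudo-time, sex mix and depth moved with the week, and their part was not tested.

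Some of these differences were shared by the neighboring clusters of the same library. Nt5e, a surface nucleotidase, was at 3.05, 47.7 and 3.69 CPM in GCimm1 of w1, w2 and w4, and at 6.44, 50.4 and 4.48 in NB1. In GCimm2 it was at 58.1 CPM in w2 and 3.88 in w4, so that all 3 clusters were high in w2 only. Col14a1, a fibril-associated collagen, was at 1.53, 2.01 and 57.9 CPM in GCimm1 and at 78.4 in NB1 and 52.2 in GCimm2 of w4.

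Other genes took different courses in these clusters, a difference that could not be tested. Esr1, the estrogen receptor, was at 18.3, 43.3 and 4.31 CPM in GCimm1 and at 1.57, 2.45 and 11.2 in NB1, above NB1 in w1 and w2 and below it in w4. Shisa9, an auxiliary subunit of AMPA receptors, was at 70.2, 42.9 and 136 CPM in GCimm1 and at 256 and 389 in GCimm2 of w2 and w4, while NB1 stayed between 40.3 and 50.4.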

How the data were processed

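Nuclei of 4 pooled libraries were assayed by 10x 3′ single-nucleus RNA-seq. The authors aligned reads to mm10 with STARsolo 2.7.4a, counted exonic and intronic UMIs without multimapping reads, removed low-quality nuclei, doublets and a group of mostly male w4 nuclei taken for a possible outlier mouse, on which the w4 shares and sex mix depend, and deposited raw UMI counts per barcode (17046 barcodes, 45706 features). They also deposited a scran-normalized log2 table with clusters and pseudo-time for 14367 nuclei, from which only the nuclei, clusters and pseudo-time were used.

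Counts were summed per library and cluster with at least 10 nuclei (38 sums). edgeR 4.0.16 (R 4.3.3) quasi-likelihood tests used TMM factors, filterByExpr and terms for cluster and library. Each SE after ± is approximate, the size of the log2 fold change divided by the square root of the F statistic of the test. DESeq2 1.42.0 was an alternative. Scripts used Python 3.11.15. The fit was tested on counts simulated from the fitted model itself, so the result cannot speak to departures from that model. Of 100 genes changed by log2 1, 74 were recovered against NB1, 58 against NB2 and 73 against GCimm2. False calls numbered 18, 15 and 26. Against the mean of the 12 other clusters 58 were recovered, with 66 false calls. Intervals cover counting error only. Gene names and lengths were taken from the GRCm38 annotation.

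Members and gene lists were chosen with earlier results of these data known. Genes were named from the markers, the 6 largest called changes a direction and comparison that kept their sign in every library, the 12 genes most in excess in GCimm1, and up to 4 members a list and direction with their subunit relatives, and not all that qualified are printed. Other genes were chosen after their values were seen.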

Additional observations from a re-analysis of the deposited data

Results flagged for a closer look

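In 4 genes of the lists, called against a neighboring cluster, the differences by library, taken from the levels and not from the fit, went past 1.5-fold in opposite directions. The difference between libraries was not tested. In each gene the w4 value rests on few UMIs, and a value beside a level of 0 depends on the prior count and is no bound. Inhba, a subunit of activin, was at 3.35 log2 units against NB1 in w4, where NB1 was at 0, and at −2.15 in w1, where GCimm1 was at 0 (fitted 1.68). Kcnt1, a sodium-activated potassium channel, was at 1.73 against NB1 in w2 and −1.02 in w4 (fitted 1.94), with 4 UMIs in GCimm1 of w4. Against NB2 it was at 3.19 in w2 and −1.21 in w4 (fitted 3.03), but NB2 was at 0 CPM in both and GCimm1 at 6.03 and 2.46, so that the negative sign comes from the prior count and not from the levels. Meis2, a homeobox factor, was at 1.31 against NB1 in w4, with 4 UMIs in GCimm1 and 0 in NB1. In w1 it was at −4.21, with 4.58 CPM in GCimm1 and 98.99 in NB1 (fitted −3.95). Chst9, a sulfotransferase, was at 0.75 against GCimm2 in w4 and −2.97 in w2 (fitted −2.18), with 6 and 18 UMIs in GCimm1.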

How the results depend on the processing

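Requiring a 2-fold change left 958 genes against NB1 (1528 at 1.5-fold) and 667 against GCimm2 (1142), and DESeq2 called 735 against GCimm2. With nuclei of 1 sex, chosen after seeing the data, 945 genes were called against NB1, 562 against NB2 (952 in all nuclei) and 499 against GCimm2 in males, and 1260, 418 and 1028 in females. Leaving out each library in turn gave 812 to 1572 genes against NB1, 565 to 974 against NB2, 430 to 1166 against GCimm2 and 2415 to 3003 against the mean of the other clusters (2932), the lowest without w2 each time. Each library is 1 week and 1 pool, so the library term takes up both. Without this term 1296, 839, 863 and 2901 genes were called. The share of nuclei in GCimm1 was 5.584% in w1, 52.6% in w2 and 11.16% in w4 of neuronal clusters, and 41.88% in w2 and 6.943% in w4 of all barcodes. Thinning to 2000 UMIs gave 88 of 7001 genes between w2 and w4 (167 of 9428 before) and 88 of 1897 between w1 and w4 (179 of 4105 before). Within w2 alone 283 genes were highest in GCimm1 (455 pooled, 187 shared). In male nuclei the difference from NB1 was −0.03 for Rtn4rl1 and −0.06 for Kcnt1, and Chst9 against GCimm2 ranged from −2.85 to 0.90 when a library was left out, all 3 with the sign turned in at least 1 setting. The cause of these shifts was not tested. NB2 of w4 held 18 nuclei, and each week is 1 pool.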
